A study of Mus musculus with 9 samples.

Results

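Histone-modifying enzymes add or remove acetyl and methyl groups on histone tails, and their messages were followed here through an immunoprecipitation of RNA with phosphorylated UPF1 (p-UPF1) in activated mouse B cells. The members were every gene of the count table whose symbol begins with Kdm, Kmt, Setd, Hdac or Kat followed by a digit or b, together with Ezh1 and Ezh2. The rule found 57 of 27179 genes, and 56 of them had enough counts to be among the 13129 genes tested. The 57 comprised 28 writers (20 methyltransferases and 8 acetyltransferases) and 29 erasers (18 demethylases and 11 deacetylases). The member not tested was Kdm5d, a demethylase gene on chromosome Y, with 0 counts in all 9 libraries. A count of 0 allows up to 0.0157 CPM (read counts scaled to the size of a library) over the libraries together. A shared name does not make every member a histone enzyme: Setd3 and Setd6 act mainly or partly on other proteins, the activity of Kdm8 on histones is disputed, and little methyltransferase activity is known for Setd5 and Kmt2e.

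RNA immunoprecipitation sequencing (RIP-seq) recovers RNA with a protein and counts it by sequencing. All libraries came from spleen B cells of wild-type mice, taken as CD43- cells and stimulated for 72 h with 10 ug/mL anti-IgM antibody, 20 ng/mL IL-4 and, per the labels, 5 ug/mL CD40L, or an antibody against CD40 per the methods of the study. The 3 groups were RNA precipitated with the antibody against p-UPF1, RNA precipitated with normal rabbit IgG, and RNA of the lysate itself (input), with 3 libraries each and no label for age, sex or animal. Since nothing in the labels ties libraries to separate mice or cultures, p-values measure only the spread between these libraries, which may be technical.

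UPF1 is an RNA helicase that scans messages as translation ends, and its phosphorylation recruits the factors of nonsense-mediated mRNA decay (NMD). Writers and erasers of histone marks work in opposed groups: Ezh1 and Ezh2 are alternative catalytic subunits of Polycomb repressive complex 2, which Kdm6a and Kdm6b oppose, the MLL enzymes (Kmt2 genes) are opposed by the Kdm5 enzymes, and acetyltransferases by deacetylases. In B cells, Ezh2 and Kmt2d are known for their part in the germinal centre response and in lymphoma.

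Library totals ran from 17372510 to 24945286 counts, with Pearson's r of log2 CPM between libraries of a group of 0.982 to 0.997, lowest among the IgG libraries. Upf1 itself rose by 2.08 on the log2 scale over IgG and by 2.04 over input. The 8 B cell markers summed to between 9181 and 9248 CPM in the input libraries, while T cell, NK cell, neutrophil, erythroid and platelet markers each summed to under 1 CPM, with 4 of the 5 listed erythroid markers in the table, and dendritic cell markers to 4.28 to 4.78 CPM. Plasma cell markers summed to 270 to 278 CPM in input, 229.6 to 269.9 CPM in IgG and 128 to 132 CPM in the p-UPF1 libraries. Most of that sum in input was Xbp1 (250 CPM), with Prdm1 at 16.2, Sdc1 at 3.81 and Jchain at 3.26 CPM. Xbp1, Prdm1 and Jchain were lower in p-UPF1 than in IgG, while Sdc1 was higher (8.88 against 2.49 CPM). The 5 macrophage and monocyte markers summed to 139 to 152 CPM in input, 99.8 to 109 CPM in IgG and 57.6 to 59.4 CPM in the p-UPF1 libraries, and the B cell markers to 3329 to 3423 CPM in the latter. Nearly all of the macrophage and monocyte sum in input was Adgre1 (129 CPM) and Cd68 (14.2 CPM), with Csf1r, Lyz2 and Itgam between 0.0301 and 0.216 CPM. The part of these markers in the results was not tested. No RNA was added as a standard, so each value is relative to the typical RNA of its library, and fewer cells expressing a message and less of it per cell cannot be told apart.

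Only 3 members met the criterion of the study's methods for a p-UPF1-bound RNA, which asks for a minimum on the log2 scale of 1 against IgG and of 2 against input, with both adjusted p-values under 0.05. They were Kat14, Kdm8 and Hdac11, 1 writer and 2 erasers. Over all genes tested, 6.25% were p-UPF1-bound, so 3 of 56 members (5.36%) was close to the background. All folds and adjusted p-values below come from edgeR's quasi-likelihood test, adjusted by the Benjamini-Hochberg method over all genes tested. Values per library are CPM scaled by TMM factors, in the order of the column letters A, B and C, and SE stands for standard error.

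Hdac11, the sole class IV deacetylase (chr6:91156670-91174692, plus strand), stood furthest from its backgrounds. It was at 41.7, 44.0 and 45.1 CPM in the p-UPF1 libraries, at 6.85, 7.96 and 6.31 CPM in IgG and at 6.37, 5.70 and 6.42 CPM in input. Every p-UPF1 library lay above every other library. Against IgG the log2 fold change was 2.63 (SE 0.090, adjusted p = 5.78e-14 by edgeR's test). Against input it was 2.82 (SE 0.090, adjusted p = 2.05e-14 by edgeR's test). In the lysate it was among the scarcest members per length, at 2.47 ± 0.160 CPM per kb of exon (SD, n = 3).

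Kdm8, a JmjC-domain oxygenase also known as Jmjd5 (chr7:125444620-125463651, plus strand), was at 42.3, 44.4 and 40.8 CPM in the p-UPF1 libraries, at 8.93, 8.06 and 11.2 CPM in IgG and at 10.6, 8.83 and 8.81 CPM in input. Both backgrounds overlapped each other and lay far under the precipitate. Against IgG its log2 fold change was 2.18 (SE 0.10, adjusted p = 4.80e-12 by edgeR's test). Against input it was 2.16 (SE 0.10, adjusted p = 3.68e-12 by edgeR's test). Kat14, a subunit of the ATAC acetyltransferase complex (chr2:144369032-144407675, plus strand), was at 205, 210 and 203 CPM in the p-UPF1 libraries, at 48.5, 55.6 and 58.3 CPM in IgG and at 48.7, 49.9 and 47.2 CPM in input. The groups of p-UPF1 and the other libraries did not overlap. Kat14 had a log2 fold change against IgG of 1.93 (SE 0.057, adjusted p = 8.84e-15 by edgeR's test). Against input it was 2.08 (SE 0.057, adjusted p = 2.85e-15 by edgeR's test). It shares 273 bases of exon on the same strand with Pet117, which is 7.28% of its exonic length, so its counts could hold reads of that gene.

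Of these 3, Kat14 (2.08) and Kdm8 (2.16) were just inside the minimum of 2 over input. Tested against the fold minimum itself with glmTreat, in place of a test against no change, 1 member (Hdac11) remained, beside 4.12% of all genes. Setd5 (1.63), Kdm5a (1.62) and Hdac4 (1.40), which passed against IgG, were nearest to that minimum from outside. Setd5, a SET-domain protein found with the NCoR and HDAC3 corepressors, had the highest count level of the members in the precipitate, at 762, 733 and 797 CPM against 289, 296 and 291 CPM in IgG and 243, 251 and 248 CPM in input. Kdm5a, a demethylase of the methyl mark at active promoters, was at 551, 534 and 550 CPM against 229, 258 and 264 CPM in IgG and 176, 176 and 179 CPM in input. Both were abundant messages, and both were also higher in IgG than in input (log2 fold changes of 0.24 and 0.50, adjusted p = 9.60e-05 and 3.56e-07 by edgeR's test). Hdac4, a class IIa deacetylase that shuttles between nucleus and cytoplasm, was at 45.5, 45.6 and 48.8 CPM against 16.6, 20.2 and 18.6 CPM in IgG and at 17.6 ± 0.516 CPM in input (SD, n = 3). Against IgG the log2 fold changes were 1.39 for Setd5 (SE 0.039, adjusted p = 5.62e-15), 1.12 for Kdm5a (SE 0.047, adjusted p = 1.00e-12) and 1.34 for Hdac4 (SE 0.073, adjusted p = 3.13e-11) by edgeR's test. Of Kdm5a, 271 bases of exon (2.47%) lie opposite exons of Ccdc77, whose own log2 fold change over IgG was 2.06, and it is not stated that counting used strand.

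**Figure D1:**
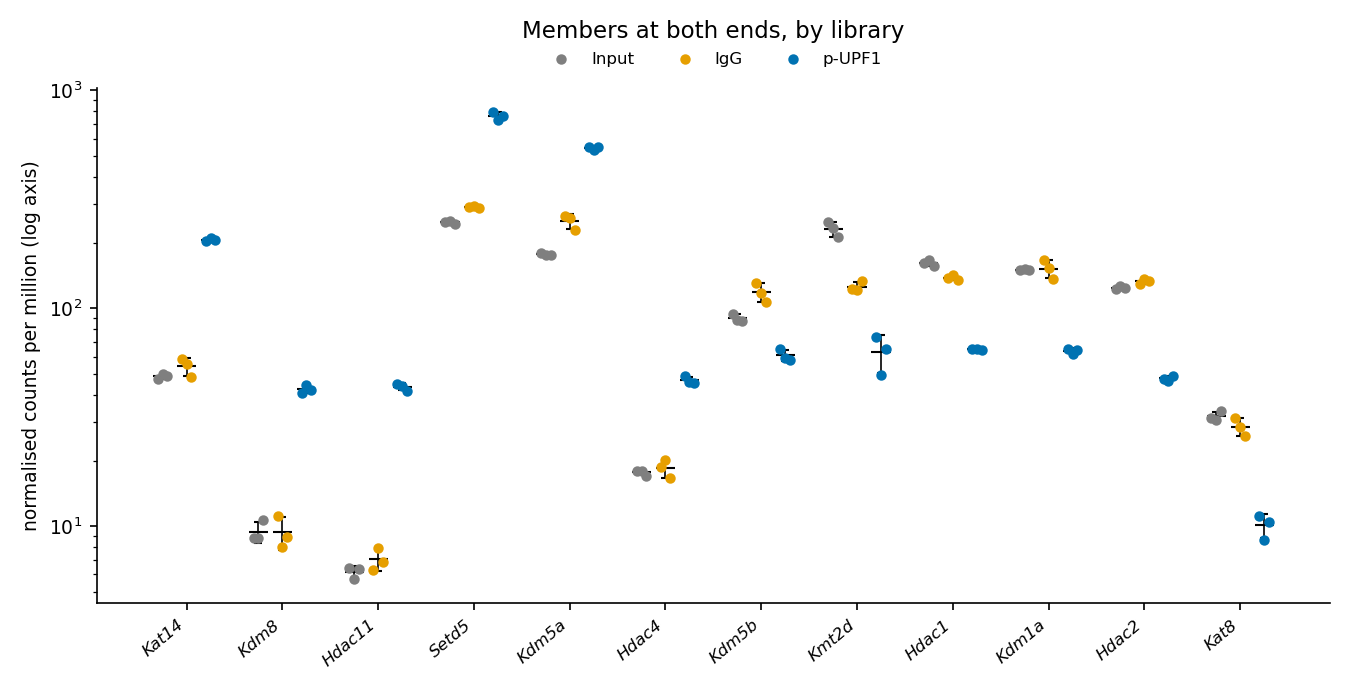
CPM scaled by TMM factors on a log axis for 12 members in the 3 input, 3 IgG and 3 p-UPF1 libraries (points), with mean and SD in black. The p-UPF1 libraries of the 6 members on the left lie above all others and those of the 6 on the right below all others, and the Kmt2d points of p-UPF1 spread from 49.5 to 73.7 CPM.

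An upstream ATG, a start codon ahead of the annotated coding start, was looked for in the 5′ UTR because translation that stops upstream is a known route to NMD. This feature was chosen for description after the members' values were seen. The letters around the upstream ATG nearest the coding start are shown for the 6 members on either side of the criterion, with that ATG in capitals and 9 bases on each side, 5′ to 3′ on the strand of the gene, from the longest-coding GENCODE M21 transcript on GRCm38.
Kat14: tgtgggcagATGtccttctga
Kdm8: aagtgatcgATGctctcggtg
Hdac11: cccagcgccATGgaggcgtgt
Setd5: gtccgtaacATGttggctgag
Kdm5a: cctaagaagATGcgctgcggc
Hdac4: tgttcctgcATGtgctggtgg
The windows lie at chr2:144373528-144373548, chr7:125444678-125444698, chr6:91156741-91156761, chr6:113104945-113104965, chr6:120364490-120364510 and, on the minus strand, chr1:92148357-92148377. In Kat14 this frame closes after 4 codons, its stop included, in Kdm8 after 5, in Kdm5a after 10, in Setd5 after 13 and in Hdac4 after 22, all before the coding start. In Hdac11 the only upstream ATG lies 96 bases ahead, in frame with the coding start and with no stop between, so it does not open a separate short frame.

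Of the 56 tested members, 31 had an upstream ATG in that transcript (55.4%), against 49.8% of the 11874 tested genes with such a transcript. Among the 12 members that reached 1 on the log2 scale against IgG, 11 had one, Kdm4b being the exception, against 1382 of 2678 such genes overall (51.6%). The 31 members with an upstream ATG had a median log2 fold change over IgG of 0.53 and the 25 without had one of -0.20, while the medians over all genes were 0.13 and -0.13. All 3 p-UPF1-bound members had one, as did 373 of 755 bound genes overall (49.4%). With any coding transcript of a gene, 11 of the 12 had an upstream ATG, beside 61.7% of all genes as high, and with the longest 5′ UTR again 11, beside 60.1%. With every coding transcript required, 10 of the 12 had one, beside 39.0%, and with a frame that closes before the coding start again 10, beside 42.6%. These letters mark an annotated sequence and not a site shown to be used in these cells.

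**Figure D2:**
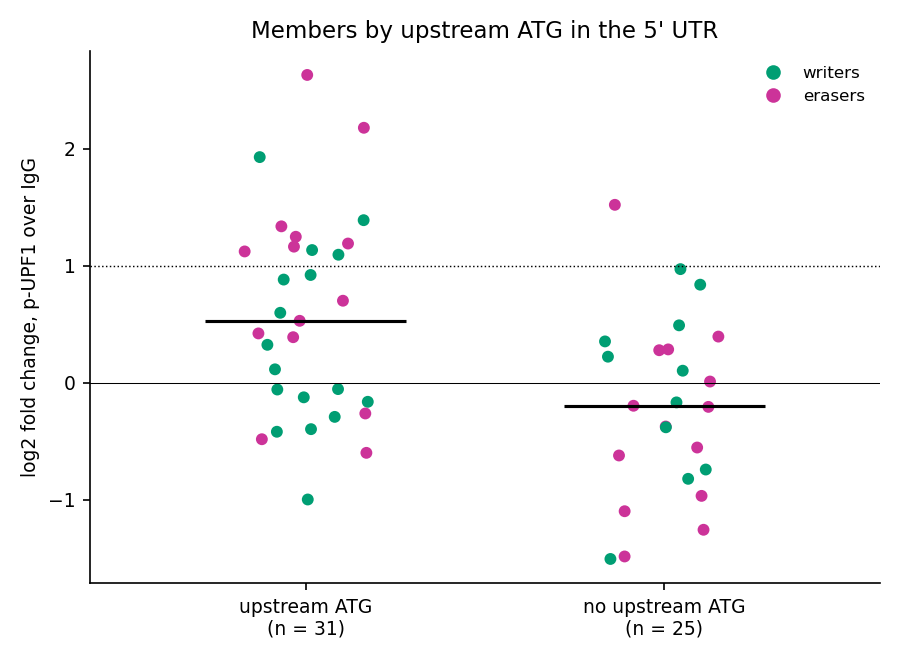
Log2 fold change of p-UPF1 over IgG for 31 members with and 25 members without an upstream ATG, writers in green and erasers in magenta, horizontal bars at the medians (0.53 and -0.20) and a dotted line at 1. Of the 12 members on or above the dotted line, 11 are in the left group.

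Against IgG, 12 members were higher by 1 or more on the log2 scale and 4 were lower by as much. The background was 22.2% higher and 21.9% lower, so the share of members that were higher (21.4%) was close to that of all genes, while 7.14% of members were lower. At any fold, 28 members were higher, 22 were lower and 6 did not pass the test, against 40.4% higher and 42.2% lower over all genes. The p-UPF1 libraries lay wholly above or wholly below the IgG libraries for 51 of 56 members (91.1%), where 82.1% of all genes did so. Against IgG the members spanned -1.504 to 2.63 on the log2 scale, with a median of 0.17 and an SD of 0.90 over members, beside a median of -0.03 and an SD of 1.34 over all genes. Over input, 3 members were higher by 2 or more on the log2 scale and 0 were lower by as much by edgeR's test, against 6.31% and 9.67% of all genes. At any fold, 30 members were higher (53.6%) and 20 lower (35.7%) over input, beside 40.8% and 42.6% of all genes. The median over input was 0.32, beside -0.03 over all genes.

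**Figure D3:**
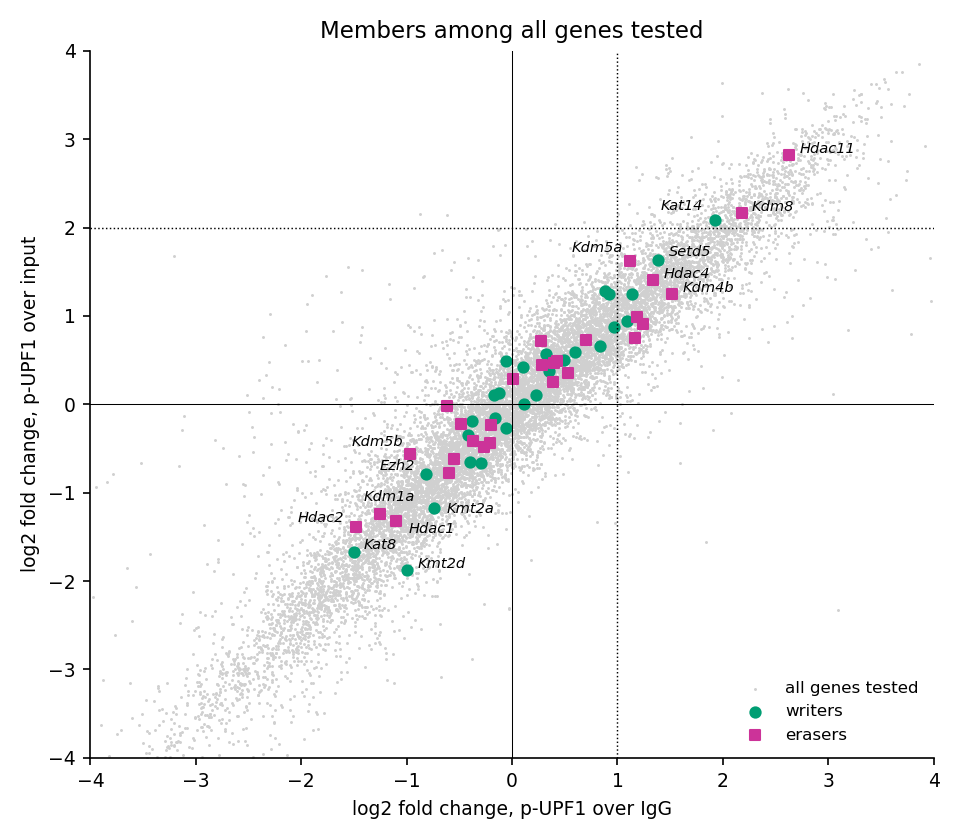
Log2 fold change of p-UPF1 over IgG (x) and over input (y) for all genes tested (grey; 98 lie beyond the axes at 4), writers (green circles) and erasers (magenta squares), with dotted lines at the minimum of 1 and of 2. Both axes share the p-UPF1 libraries; 3 members lie above both lines and Kmt2d lies lowest over input, at -1.88.

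The nonspecific precipitate differed from the lysate by less than 1 on the log2 scale in each tested member, and how many passed the test there depended on the scaling. In IgG over input, 16 members were higher and 15 lower at an adjusted p under 0.05 at any fold, against 18.2% and 34.7% of all genes. Scaled by library size alone, 28 were higher and 7 lower, against 26.8% and 24.2% of all genes, whose median moved from -0.10 to 0.01. The extremes were Kdm7a at 0.60 and Kmt2d at -0.88. In p-UPF1 over IgG, 0 of the 50 called members turned direction under the 5 other scalings and 1 (Kmt2b) lost its call.

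Members of both classes lay on either side of IgG, writers between -1.504 and 1.93 and erasers between -1.48 and 2.63 on the log2 scale. Of 28 writers, 13 were higher and 10 lower over IgG at any fold (46.4% and 35.7%), and 4 and 1 at a log2 change of 1 in size (14.3% and 3.57%). Of 28 erasers tested, 15 were higher and 12 lower at any fold (53.6% and 42.9%), and 8 and 3 at a log2 change of 1 in size (28.6% and 10.7%). Over all genes these shares were 40.4% and 42.2% at any fold and 22.2% and 21.9% at a log2 change of 1. The median log2 fold change over IgG was 0.11 in writers and 0.28 in erasers, beside -0.03 over all genes. Scaled by library size alone, these medians were -0.05 and 0.12 and that of all genes was -0.19, so both classes stayed above the median of all genes. The summed CPM of writers over that of erasers, not divided by length, is a ratio within a library that scaling cannot move. It was 1.23 ± 0.00425 for input, 1.17 ± 0.0156 for IgG and 1.24 ± 0.0150 for the p-UPF1 precipitate (SD, n = 3 each). The p-UPF1 ratios lay above all IgG ratios (exact permutation test, two-sided p = 0.1, the smallest that 3 against 3 libraries allow) and overlapped those of input (exact p = 0.4).

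**Figure D4:**
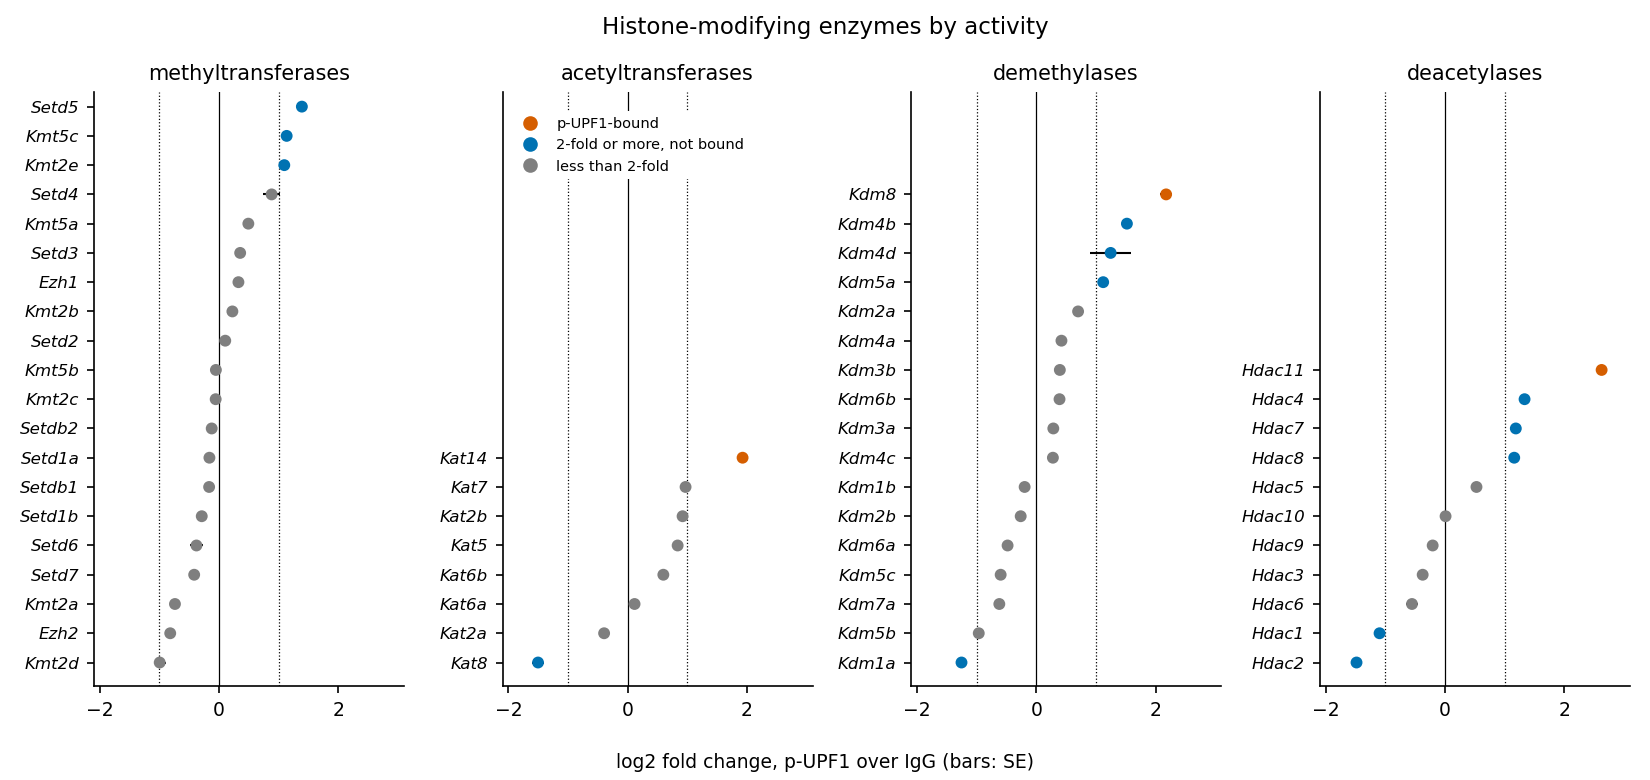
Log2 fold change of p-UPF1 over IgG for the 56 tested members by activity, with SE bars; orange points are p-UPF1-bound, blue points changed by 1 or more in size, grey points by less, and dotted lines mark -1 and 1. Each activity holds members on both sides of 0.

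Among the 20 methyltransferases, 0 were p-UPF1-bound, beside 6.25% of all genes, and 8 were higher and 8 lower over IgG at any fold by edgeR's test (40% each, beside 40.4% and 42.2% of all genes), with 3 higher and 0 lower by 1 or more on the log2 scale (15% and 0%, beside 22.2% and 21.9% of all genes). The median was -0.06. The 3 were Setd5 (1.39), Kmt5c (1.13), which writes the trimethyl mark of histone H4 in heterochromatin, and Kmt2e (1.09), a PHD and SET domain protein; 12.2% of the exonic length of Kmt2e lies opposite exons of Srpk2, which was at -0.10. Kmt5c and Kmt2e were below 1 with upper-quartile factors or library size alone. The 4 MLL genes were not alike over IgG: Kmt2a and Kmt2d were lower, Kmt2b was higher (0.22) and Kmt2c did not pass the test (-0.057). Kmt2d, which marks enhancers, was at 65.0, 49.5 and 73.7 CPM in the p-UPF1 libraries, at 133, 121 and 122 CPM in IgG and at 212, 234 and 247 CPM in input. The 3 groups did not overlap, with input highest and p-UPF1 lowest. Against IgG its log2 fold change was -0.996 (SE 0.10, adjusted p = 1.04e-07 by edgeR's test), just short of the minimum of 1 in size, which it passed with library size alone. Against input it was -1.88 (SE 0.10, adjusted p = 1.83e-11 by edgeR's test), and in IgG against input -0.88 (SE 0.095, adjusted p = 1.28e-06 by edgeR's test). Kmt2a, the founding MLL gene, was at 123, 105 and 131 CPM in p-UPF1, at 198, 183 and 218 CPM in IgG and at 266, 270 and 276 CPM in input. It fell by 0.74 on the log2 scale against IgG (SE 0.070, adjusted p = 4.51e-08 by edgeR's test) and showed the same order of groups. For Kmt2a and Kmt2d, library B was the lowest of the p-UPF1 libraries, and without it the values over IgG remained negative, at -0.65 and -0.85.

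The catalytic subunits of Polycomb repressive complex 2 parted. Ezh2, the subunit of dividing cells, was the most abundant member per length in the lysate (163 ± 4.71 CPM per kb of exon, SD, n = 3). It was at 259, 247 and 248 CPM in p-UPF1, at 440, 455 and 435 CPM in IgG and at 433, 449 and 425 CPM in input, a log2 fold change of -0.82 against IgG (SE 0.039, adjusted p = 5.15e-12 by edgeR's test). Ezh1, the subunit that prevails in resting cells, was at 69.9, 71.4 and 76.0 CPM in p-UPF1, at 60.8, 53.6 and 59.2 CPM in IgG and at 48.9, 48.7 and 48.4 CPM in input, with a log2 fold change of 0.32 against IgG (SE 0.055, adjusted p = 4.44e-05 by edgeR's test). Neither overlapped between p-UPF1 and the other groups, and they moved in opposite directions. The ratio of Ezh1 to Ezh2 per kb was 0.0709 ± 0.00187 for input, 0.0828 ± 0.00718 for IgG and 0.183 ± 0.0116 for the p-UPF1 precipitate (SD, n = 3). Setd2, the enzyme of the trimethyl mark on transcribed gene bodies, was at 265, 263 and 287 CPM in p-UPF1 and at 230, 265 and 264 CPM in IgG. These groups overlapped and the log2 fold change of 0.10 did not pass the test (SE 0.054, adjusted p = 0.0886 by edgeR's test); it turned to -0.058 with library size alone, and passed as higher with no low-count filter (0.15, adjusted p = 0.00393) and without IgG library B (0.15, adjusted p = 0.0308) or C (0.14, adjusted p = 0.0468).

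The other methyltransferases lay within 1 of IgG on the log2 scale. Kmt5a, the monomethyltransferase of histone H4, was higher (0.49) and its relative Kmt5b did not pass the test (-0.05). The SET1 genes Setd1a (-0.16) and Setd1b (-0.29), main enzymes of the trimethyl mark at promoters, were lower. Setdb1, a heterochromatin enzyme, was lower (-0.17) and its paralogue Setdb2 did not pass (-0.12). Setd7 (-0.42) and Setd6 (-0.38) were lower, and Setd4 (0.88) and Setd3 (0.35), an actin methyltransferase, were higher.

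Of the 8 acetyltransferases, 5 were higher and 2 lower over IgG at any fold (62.5% and 25%, beside 40.4% and 42.2% of all genes), with a median of 0.72. Beside Kat14, Kat7 of the HBO1 complex (0.97), Kat2b (0.92) and Kat6b (0.60) were higher. Kat5, the catalytic subunit of the TIP60 complex, was at 66.1, 66.9 and 65.6 CPM in p-UPF1, at 35.4, 37.0 and 38.6 CPM in IgG and at 40.3, 42.3 and 43.7 CPM in input, a log2 fold change of 0.84 against IgG (SE 0.053, adjusted p = 2.36e-10 by edgeR's test). Kat8, also called MOF, was the lowest of all members over IgG. It was at 10.4, 8.67 and 11.2 CPM in p-UPF1, at 26.0, 28.4 and 31.3 CPM in IgG and at 33.7, 30.7 and 31.4 CPM in input, a log2 fold change of -1.504 (SE 0.097, adjusted p = 2.84e-10 by edgeR's test). Of its exonic length, 6.83% lies opposite exons of Prss8, a gene below the count filter. Kat2a, the GCN5 paralogue of Kat2b, was at 57.4, 50.0 and 54.5 CPM in p-UPF1 and at 77.8, 65.1 and 70.2 CPM in IgG, a log2 fold change of -0.40 (SE 0.065, adjusted p = 3.26e-05 by edgeR's test). Kat2a and Kat2b thus lay on opposite sides of IgG.

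Of the 17 demethylases tested, 10 were higher and 7 lower over IgG at any fold by edgeR's test (58.8% and 41.2%, beside 40.4% and 42.2% of all genes). All 17 were separated from the IgG libraries, as 82.1% of all genes were. The median was 0.29. All 4 tested Kdm4 genes, oxygenases that remove methyl marks of heterochromatin and gene bodies, were higher: Kdm4b (1.52), Kdm4d (1.25), Kdm4a (0.42) and Kdm4c (0.28). Kdm4d was scarce and had the widest SE of the members (0.35), and it was no longer among the 12 members higher by 1 or more without IgG library C or when tested against the fold minimum. The Kdm5 genes differed among themselves. Against Kdm5a (1.12), Kdm5b was at 58.1, 59.1 and 64.8 CPM in p-UPF1, at 107, 118 and 131 CPM in IgG and at 86.9, 88.4 and 94.1 CPM in input, a log2 fold change of -0.97 against IgG (SE 0.068, adjusted p = 8.52e-10 by edgeR's test). The X-linked Kdm5c was at 137, 140 and 155 CPM in p-UPF1, at 195, 224 and 234 CPM in IgG and at 234, 251 and 252 CPM in input, a log2 fold change of -0.60 (SE 0.064, adjusted p = 2.06e-07 by edgeR's test). Both lay wholly under IgG and input. The ratio of Kdm5a to Kdm5b per kb was 1.13 ± 0.0365 for input, 1.22 ± 0.0537 for IgG and 5.17 ± 0.284 for the p-UPF1 precipitate (SD, n = 3).

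Kdm1a, the flavin-dependent demethylase LSD1, was at 64.1, 61.8 and 65.1 CPM in p-UPF1, at 136, 153 and 166 CPM in IgG and at 150, 152 and 149 CPM in input. IgG and input overlapped, and p-UPF1 lay far under both. The log2 fold change over IgG was -1.25 (SE 0.059, adjusted p = 4.49e-12 by edgeR's test). The demethylases that oppose Polycomb parted in a milder way. Kdm6a was at 124, 119 and 128 CPM in p-UPF1 and at 164, 178 and 176 CPM in IgG, a log2 fold change of -0.48 (SE 0.046, adjusted p = 5.25e-08 by edgeR's test). Kdm6b, which is induced by stimulation in many immune cells, was at 62.6, 53.8 and 63.5 CPM in p-UPF1 and at 46.9, 46.2 and 44.3 CPM in IgG, a log2 fold change of 0.39 (SE 0.062, adjusted p = 2.40e-05 by edgeR's test).

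The remaining demethylases lay within 1 of IgG on the log2 scale. Kdm2a, which binds unmethylated CpG islands, was higher (0.70), and its paralogue Kdm2b (-0.26) lower. Kdm3a (0.29) and Kdm3b (0.39), which act on the mark of silent genes, were both higher. Kdm7a was lower over IgG (-0.62), yet it had the highest IgG over input value of the members (0.60) and lay near input in the precipitate (-0.02, adjusted p = 0.769 by edgeR's test).

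Of the 11 deacetylases, 5 were higher, 5 lower and 1 (Hdac10) did not pass the test over IgG (45.5% each way, beside 40.4% and 42.2% of all genes), with a median of 0.01, and their range was the widest of the 4 activities, from -1.48 to 2.63. The class I enzymes Hdac1 and Hdac2, catalytic cores of the NuRD, SIN3 and CoREST complexes, were both lower. Hdac1 was at 64.1, 64.8 and 65.0 CPM in p-UPF1, at 135, 142 and 138 CPM in IgG and at 156, 166 and 162 CPM in input, a log2 fold change of -1.10 against IgG (SE 0.043, adjusted p = 3.36e-13 by edgeR's test). Hdac2 was at 49.0, 46.5 and 47.4 CPM in p-UPF1, at 133, 137 and 129 CPM in IgG and at 124, 126 and 123 CPM in input, a log2 fold change of -1.48 (SE 0.044, adjusted p = 1.05e-14 by edgeR's test). Hdac3, the enzyme of the NCoR complexes, was lower by less, at 55.8, 53.6 and 55.6 CPM against 81.7, 67.0 and 65.2 CPM in IgG, a log2 fold change of -0.37 (SE 0.071, adjusted p = 0.000145 by edgeR's test). For these 3 the p-UPF1 libraries lay under every IgG and input library. Hdac8, the remaining class I enzyme, was higher (1.16).

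Class IIa deacetylases bind transcription factors of the MEF2 family and carry little catalytic activity of their own. Hdac4 (1.34), Hdac7 (1.19) and Hdac5 (0.53) were higher over IgG. Hdac7, known for its part in B cell identity, was at 375, 362 and 373 CPM in p-UPF1, at 166, 154 and 167 CPM in IgG and at 185, 181 and 194 CPM in input (log2 fold change 1.19, SE 0.044, adjusted p = 1.59e-13 by edgeR's test). Only 29 bases of its exons lie opposite another gene, Slc48a1 (1.34). Hdac9 was the exception in the class, at 65.5, 65.5 and 65.6 CPM in p-UPF1, at 70.6 to 81.0 CPM in IgG and at 85.4, 91.0 and 89.2 CPM in input, a log2 fold change of -0.21 (SE 0.053, adjusted p = 0.00198 by edgeR's test). Per kb, Hdac7 was at 4.39 ± 0.222 times Hdac9 for input, 4.496 ± 0.483 times for IgG and 11.8 ± 0.218 times for the p-UPF1 precipitate (SD, n = 3).

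Ratios between 12 pairs of members were computed within each library, where scaling cancels; the pairs were chosen with their values known and are a description. In all 12 the ratio of the first gene to the other was higher in every p-UPF1 library than in every IgG and input library. The change was large for Hdac11 over Hdac1, from 0.0303 ± 0.00273 for input and 0.0402 ± 0.00407 for IgG to 0.533 ± 0.0167 for p-UPF1, and for Kat7 over Kat8, from 1.43 ± 0.0807 and 1.496 ± 0.119 to 8.39 ± 1.23. It was small for Kat6b over Kat6a, from 0.179 ± 0.000733 and 0.193 ± 0.00731 to 0.270 ± 0.0173 (SD, n = 3 each). Ratios of CPM summed over all members of an activity were not divided by length. Acetyltransferases stood at 0.712 ± 0.00512 of deacetylases for input, at 0.729 ± 0.0375 for IgG and at 1.01 ± 0.0135 for p-UPF1, with the p-UPF1 libraries above all others (exact permutation test, two-sided p = 0.1 against each, the smallest possible). Methyltransferases over demethylases were at 1.46 ± 0.00799 for input, 1.33 ± 0.0445 for IgG and 1.33 ± 0.0251 for p-UPF1, where p-UPF1 and IgG overlapped (exact permutation test, two-sided p = 1) and all p-UPF1 ratios lay below those of input (exact p = 0.1).

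**Figure D5:**
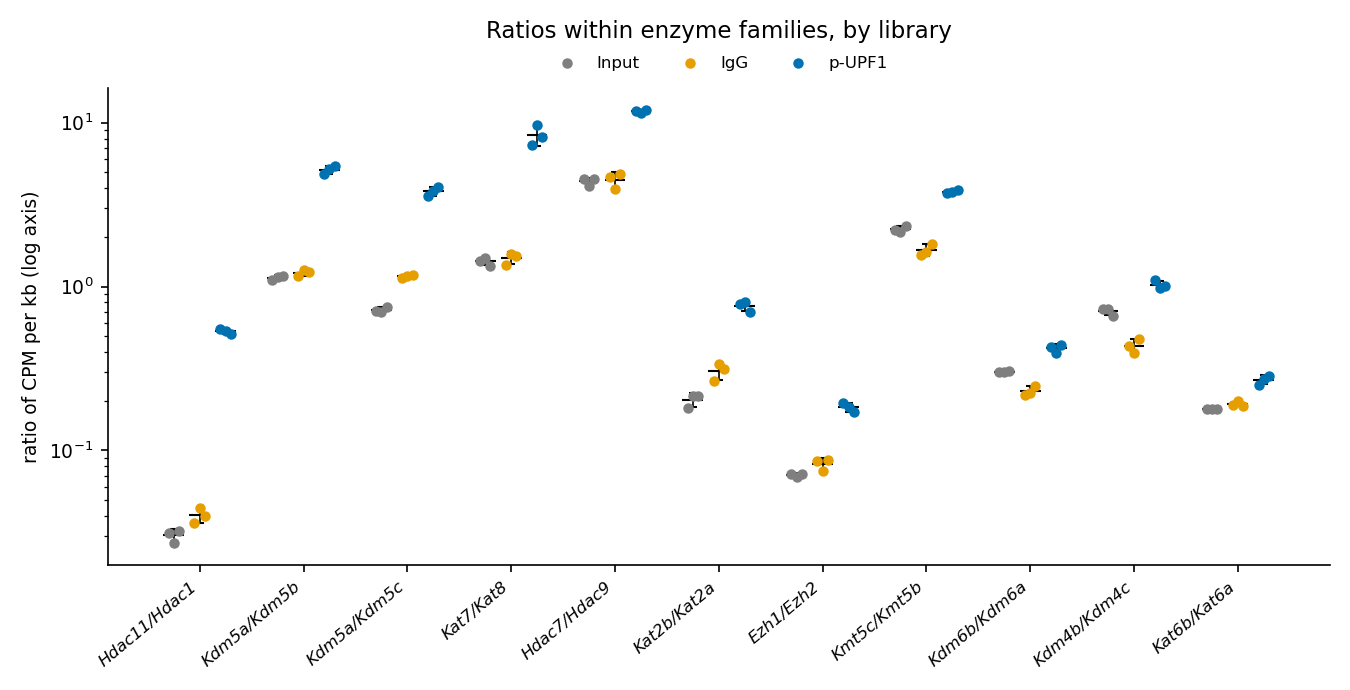
Ratio of CPM per kb of exon between 11 pairs of members on a log axis, for each input, IgG and p-UPF1 library (points), with mean and SD in black. In each pair the 3 p-UPF1 ratios lie above those of the 6 other libraries, by the widest margin for Hdac11 over Hdac1.

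The members' transcripts were long. Their median coding length was 3014 bases against 1401 over all tested genes with an annotation, and the median 3′ UTR was 872 bases against 953. A transcript annotated as a target of NMD existed for 26 of 56 members (46.4%), against 29.4% of all genes. The median log2 fold change over IgG was 0.44 in the 26 and -0.09 in the rest, beside 0.17 and -0.06 over all genes. Across 55 members the GC share of the 3′ UTR and the log2 fold change over IgG had a Spearman correlation of 0.32, as did 11721 genes overall (0.31). The correlation was 0.56 across 27 erasers and 0.06 across 28 writers. The points share the same libraries and are not independent, so these are descriptions. Where the exons of a member overlap a gene on the other strand, counts could be mixed; the 47 tested members without such overlap held all 3 bound members, 9 of the 12 higher and 3 of the 4 lower at a log2 change of 1 in size.

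Partner proteins and other chromatin enzymes were taken from 8 lists of 83 genes, 82 of them tested. Over IgG, 10 were higher (12.2%) and 11 lower (13.4%) at a log2 change of 1 in size, beside 22.2% and 21.9% of all genes. The 3 that were p-UPF1-bound made 3.66%, beside 6.25%, and the median was -0.10, beside -0.03. At any fold, 28 were higher (34.1%) and 38 lower (46.3%), beside 40.4% and 42.2% of all genes, and the counts by list below are at any fold. The bound genes were Wdr5 (2.49) and Rbbp5 (2.03), core subunits shared by the MLL and SET1 complexes, and Gtf3c4 (2.16), a subunit of transcription factor TFIIIC with acetyltransferase activity. Of 10 core and accessory subunits of the COMPASS and MLL complexes, 3 were higher and 6 lower at any fold, with Dpy30 lowest at -2.12. Of the 9 Polycomb subunits and accessory proteins, 3 were higher and 6 lower at any fold. Rbbp7 (-1.83), Rbbp4 (-1.81) and Eed (-1.64) of the core lay below Ezh2 (-0.82), Suz12 of the core (-0.58) lay above it, and Phf19 (1.26), an accessory subunit, was the highest. Of 17 scaffolds of the deacetylase and demethylase complexes, 5 were higher and 10 lower, from Sap30 of the SIN3 complex (-2.26) to Rcor3 of CoREST (1.13). The other lists held 14 lysine methyltransferases (4 higher, 4 lower), 8 arginine methyltransferases (5 and 2), 9 acetyltransferases (4 and 3), 8 tested JmjC proteins (3 and 3) and 7 sirtuins (1 and 4).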

How the data were processed

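The deposited values were raw read counts per gene from RIP-seq of 3 input, 3 IgG and 3 p-UPF1 libraries, as the authors left them, with no scaling visible. The submitters' processing notes name cutadapt, HISAT2, featureCounts and mm10, without versions. The study's RNA-seq methods describe single-end, unstranded alignment in Galaxy, and the counting of the RIP-seq reads, its use of strand included, is not described separately in the sources used here. There were no molecular identifiers, so the zero-count floor of 3 counts covers counting error only.

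Gene numbers were matched to RefSeq GRCm38.p6 symbols (25275 of 27179, and 17 more by GENCODE M21), and all 57 members matched. Genes were kept by filterByExpr (minimum count 10, minimum total 15), scaled by TMM and fitted over all 9 libraries with edgeR 4.0.16 (glmQLFit and glmQLFTest, two-sided, 6 residual degrees of freedom, prior count 0.125, Benjamini-Hochberg), in R 4.3.3 with limma 3.58.1 and DESeq2 1.42.0 for alternatives. The procedure was tested on simulated data in which few genes were changed. In these data 40.4% of genes were higher and 42.2% lower over IgG, so that test does not cover the choice of scaling. CPM per kb used curated RefSeq exons. Columns carry letters where labels carry numbers, so each column was assigned to a group only.

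Genes with full values were every bound member, the 6 lowest over IgG at 10 CPM or more, the 3 nearest to each side of the minimum over input, any member at a log2 change of 1 between IgG and input, and 16 by name; other members and list genes were given by a value per comparison, and Kdm4d and Kdm7a were singled out after their values were seen. The members and lists were chosen with earlier results of these data known. Figures were drawn in Python 3.11.15 with matplotlib 3.10.9.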

Additional observations from a re-analysis of the deposited data

How the results depend on the processing

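Across 23 alternatives, the counts of members higher and lower over IgG at a log2 change of 1 in size stayed within 9 to 14 and 4 to 6. Of all genes, 16.3% to 22.9% were then higher and 14.8% to 26.0% lower. Kdm5a, Kmt2e and Kmt5c were no longer among the higher under upper-quartile scaling or library size alone, nor Kdm4d without IgG library C or with glmTreat. Kmt2d, Kdm5b or both joined the lower in some settings. Both did so under upper-quartile scaling, library size alone, TMM on an input library and without p-UPF1 library C. Hdac11, Kat14 and Kdm8 were the bound members in all but glmTreat against the fold minimum. That test left 1 member bound (0 writers, 1 eraser), beside 4.12% of all genes, and 1 higher over input. Each library left out once gave 3 bound, 1 writer and 2 erasers bound, 11 to 14 higher and 4 to 6 lower over IgG, 3 higher and 0 to 1 lower over input (Kmt2d, without p-UPF1 library C), 11 to 17 higher and 13 to 18 lower in IgG over input, and medians over IgG of 0.04 to 0.16 for writers and 0.26 to 0.32 for erasers. Of all genes, these fits called 6.14% to 6.39% bound, 21.8% to 22.8% higher and 21.2% to 21.9% lower over IgG. The shares in IgG over input were 14.3% to 19.1% higher and 29.9% to 36.3% lower. In IgG over input, library size alone gave 28 higher and 7 lower (26.8% and 24.2% of all genes), TMM on an IgG library 27 and 7 (26.0% and 24.8%), and TMM on an input library 26 and 7 (25.9% and 25.01%), while a fit of only those groups gave 7 lower (23.9%). The median of writers over IgG was -0.0272 under upper-quartile scaling, -0.0521 by library size alone and 0.0247 for TMM on an input library, and that of erasers 0.145 and 0.120 for the first 2 of these. The median of all genes was then -0.17, -0.19 and -0.12, so scaling moved all genes together. Of 1056 values of 24 named genes, 1049 kept direction and call; Kdm6a over input lost its call with no low-count filter (-0.0896, adjusted p = 0.133 by edgeR's test), and Setd2 over IgG turned to -0.0329 under upper-quartile scaling and -0.0579 by library size alone, and passed as higher in 4 settings. The choice of transcript for the upstream ATG was added after seeing the data. The columns carry the letters A, B and C in each group, and the replicate numbers of the labels are not tied to them. Deviations from the group means correlated weakly between libraries with the same letter (r from -0.0051 to 0.0542 over 9 pairs, against -0.056 to 0.0222 with other letters), and a library correlated best with its own letter in 13 of 18 cases. The methods of the study take input as a part of the lysate that was precipitated, so libraries of a lysate can be paired. No label ties a letter to a lysate. As 0 of the 9 pairs were over 0.1, a cut chosen here, the letter was not taken as pairing in the main fit. With it as a replicate block, also added after seeing the data, 3 members were bound, 12 higher and 5 lower over IgG, and 16 higher and 17 lower in IgG over input. Of all genes, 6.26% were then bound, 22.3% higher and 21.8% lower over IgG, and 18.7% higher and 35.4% lower in IgG over input. Setd2 over IgG then passed the test (0.11, adjusted p = 0.0345 by edgeR's test). Low counts limit Kdm4d, and the cause of these differences was not tested.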
